A study of Rattus norvegicus with 18 samples.

Results

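Genes for matrix and adhesion molecules of glia were followed in rat astrocytes grown on beta-amyloid, namely Agrn, Bcan, Cd44, Ncam1, Lsamp, Nrp2 and Atp1b2. Every probe set that the platform annotation pairs with 1 of these symbols was taken, which gave 12 probe sets of 7 genes, out of 1263 probe sets that are not array controls and 720 genes. Of the 12, 11 passed the filter on low signals and were tested, and the Cd44 probe set AF014365_i_at was not, because its signal was 0.2 to 1.5 on all 18 arrays. The cells were cortical type-I astrocytes, the flat astrocytes obtained from dissociated cortex, and RNA was measured on an array of neurobiology genes. In 12 samples the cells were grown on an immobilized fragment of beta-amyloid, residues 25 to 35, for 12 hours (12hr), 1 day (1d), 3 days (3d) or 5 days (5d), with 3 samples per time. The 6 control samples were grown on laminin and nitrocellulose without the peptide. The labels give the controls no time in culture and do not say whether the peptide dishes carried laminin, so time on the peptide and time in culture cannot be told apart, nor can the peptide and the change of substrate. Nor do the labels state separate cultures for the samples of a group, and the p-values then reflect the spread among the deposited samples, part of which could be technical.

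As background, the matrix of brain tissue is built on hyaluronan, a long sugar chain that proteoglycans of the lectican family such as brevican crosslink and that cells grip through surface receptors such as CD44. Agrin is a heparan sulphate proteoglycan of basal laminae that gathers receptors at synapses. NCAM1 and LSAMP are adhesion molecules of the immunoglobulin superfamily, neuropilin 2 is a receptor for secreted semaphorins, and ATP1B2 is a subunit of the sodium pump that was also described as an adhesion molecule on glia.

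The deposited values are linear signals, 1 per probe set and array, with a 2%-trimmed mean of 502.067 to 502.632 on every array. Signals of different probe sets are not comparable as levels, so levels of single probe sets are compared only across arrays. Sums over marker lists, given further on, are set mainly by their brightest probe sets. Of 14 astrocyte markers, 8 were measured, and Vim and Glul, an intermediate filament protein and glutamine synthetase, had signals of 8770.4 to 18831.2 and 4981.2 to 12630.1 on the 18 arrays. Clustering of the arrays without the 12 probe sets gave 2 clusters that did not follow the groups. Cluster 1 held 7 arrays, the 3 at 12hr, 1d array 3, 3d array 3, and controls 1 and 2, and cluster 2 held the other 11, with all 3 at 5d and controls 3 to 6. Controls 1 and 2 carry the source label cerebral cortex although their titles name astrocytes, while the other 16 samples carry an astrocyte source label. The median correlation of 2 arrays was 0.955 for the same group and cluster, 0.814 for the same group in different clusters, and 0.917 for different groups in 1 cluster. Because all 12hr arrays lie in cluster 1 and all at 5d in cluster 2, the cluster and these times cannot be told apart directly. Differences that passed between these times, and the folds at 12hr against control, are therefore also given with the clusters as a block, a fit that takes the difference between clusters from the controls and the 1d and 3d arrays. That fit assumes the same difference between clusters in every group. The clusters come from the same arrays, so the p-values of the blocked fit and of fits within a cluster may be too small.

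Between 12hr and 5d on the peptide, 4 of the 7 genes rose, 2 did not pass the test, and Cd44 passed as lower from signals that were dim throughout. The background to this is that 16.5% of all probe sets passed, 8.96% higher and 7.5% lower. Bcan, Lsamp, Ncam1 and Atp1b2 had higher signals at 5d than at 12hr, by 1.59 to 5.67 on the log2 scale. None of the 11 probe sets passed the test against the controls at any single time. Nrp2, which did not pass between 5d and 12hr, had its highest signals at 1d and 3d. With the clusters as a block, none of the differences between 5d and 12hr passed.

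**Figure D1:**
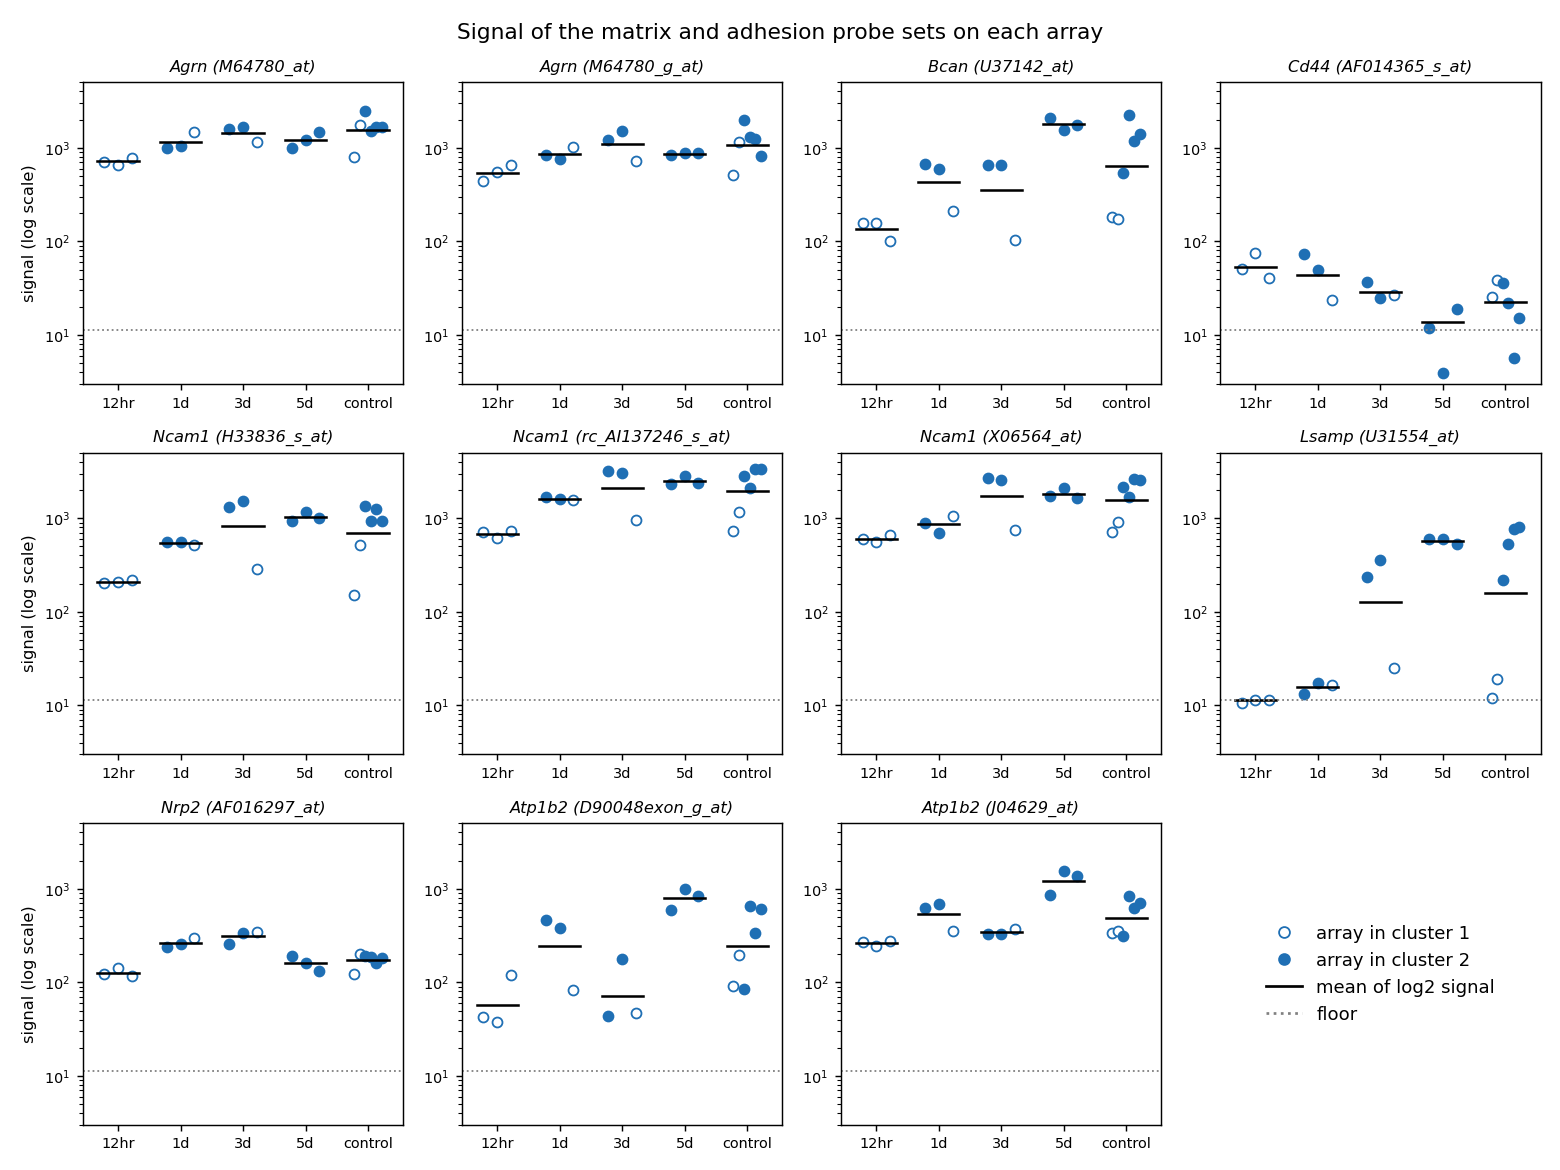
Signal (log axis) of the 11 tested probe sets on each of the 18 arrays, by group, with open circles for cluster 1, filled circles for cluster 2, a bar at the mean of the log2 signals and a dotted line at the floor of 11.3. Lsamp stays between 10.7 and 17.3 on all 12hr and 1d arrays and reaches 529.6 to 606.5 at 5d, while Nrp2 is highest at 1d and 3d.

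Agrn, which encodes agrin, was measured by probe sets M64780_at and M64780_g_at. M64780_at had signals of 711.9, 660.1 and 785.0 at 12hr, 1006.0, 1041.2 and 1488.1 at 1d, 1599.7, 1653.2 and 1156.9 at 3d, and 1003.2, 1217.4 and 1488.8 at 5d, against 791.7, 1658.1 and 2496.2 as the lowest, median and highest of the 6 controls. The 3 arrays at 12hr lay below every other array, the lowest control being control 1. M64780_g_at had 439.3 to 656.1 at 12hr, 755.8 to 1019.1 at 1d, 722.4 to 1497.6 at 3d and 826.5 to 884.4 at 5d, against 515.0 to 1987.7 in the controls. On this probe set too the 12hr arrays lay below all other exposed arrays, but they overlapped with the controls. At 12hr against control the log2 fold of M64780_at was -1.12 ± 0.28 (SE, limma adjusted p = 0.0573), which just missed the threshold of 0.05, and that of M64780_g_at was -0.99 ± 0.34 (adjusted p = 0.109). Between the other groups neighbouring in order of mean signal, the ranges of both probe sets overlapped.

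Bcan, which encodes brevican, a lectican that astrocytes secrete into the hyaluronan matrix, was measured by probe set U37142_at. Its signals were 157.5, 156.6 and 100.4 at 12hr, 668.9, 585.7 and 209.8 at 1d, 647.1, 658.6 and 102.8 at 3d, and 2100.2, 1549.0 and 1745.2 at 5d, against 172.8, 865.0 and 2235.0 as the lowest, median and highest control. The low arrays at 1d and 3d were those of cluster 1, and the lowest controls were controls 2 and 1. Every array of cluster 1 (100.4 to 209.8) lay below every array of cluster 2 (542.5 to 2235). At 5d the signals were above all arrays at 12hr, 1d and 3d, with no overlap, and within the range of the controls. Bcan rose at 5d against 12hr by 3.72 ± 0.92 on the log2 scale (SE, limma adjusted p = 0.0269). Blocking on the clusters gave a difference of 1.29, with a 95% interval of 0.22 to 2.35, which did not pass (adjusted p = 0.275).

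Cd44, which encodes the main surface receptor for hyaluronan, gave low signals throughout on probe set AF014365_s_at. They were 50.3, 75.5 and 40.3 at 12hr, 73.0, 49.7 and 23.7 at 1d, 37.0, 24.6 and 26.9 at 3d, and 11.8, 3.9 and 18.9 at 5d, against 5.7, 23.6 and 38.8 as the lowest, median and highest control. Only 4 of the 18 arrays exceeded the filter signal of 44.9, of which 2 were at 12hr and 2 at 1d, and 1 array at 5d and 1 control lay under the floor of 11.3. The 12hr arrays lay above all controls, and the 5d arrays lay below all arrays at 12hr, 1d and 3d. Cd44 was thus tested only through arrays at 12hr and 1d, and all its signals at 5d, at 3d and in the controls lay under the filter signal. At 5d against 12hr the log2 fold was -1.97 ± 0.47 (SE, limma adjusted p = 0.0259), a size that depends on the floor and was -1.13 with the floor at the 20th percentile, a signal of 24.4. Counted against the filter signal in place of the dimmer values, Cd44 was at least 1.19-fold lower at 5d than at 12hr. When the clusters were a block, the log2 fold was -2.0 (95% interval -3.27 to -0.72, adjusted p = 0.153), which did not pass.

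Ncam1, which encodes the neural cell adhesion molecule, a homophilic adhesion protein of neurons and glia, was measured by 3 probe sets that share the gene and are not independent. Probe set rc_AI137246_s_at had signals of 721.5, 607.9 and 727.5 at 12hr, 1677.7, 1613.9 and 1552.9 at 1d, 3164.4, 3036.6 and 948.7 at 3d, and 2349.6, 2853.6 and 2401.7 at 5d, against 723.1, 2467.4 and 3388.5 as the lowest, median and highest control. The 12hr arrays lay below all arrays at 1d, 3d and 5d and overlapped with the controls through control 1. At 3d, array 3, of cluster 1, lay apart at 948.7. Probe set H33836_s_at had 201.3 to 217.0 at 12hr, 521.4 to 554.2 at 1d, 284.1 to 1527.2 at 3d and 929.0 to 1173.5 at 5d, against 149.6 to 1337.2 in the controls. Probe set X06564_at had 552.7 to 661.9 at 12hr, 703.8 to 1045.5 at 1d, 752.7 to 2718.7 at 3d and 1653.6 to 2116.8 at 5d, against 721.0 to 2596.9 in the controls. All 3 probe sets thus put 12hr lowest and 5d highest in mean log2 signal, and in each the 5d range lay within that of the controls. The mean at 3d was lowered by array 3, and on all 3 probe sets 3d arrays 1 and 2 lay above every 5d array. Within cluster 2 the log2 folds at 5d against 3d were -0.3, -0.46 and -0.54 in the order above, and none passed. At 5d against 12hr Ncam1 rose on all 3, by 1.89 ± 0.54 (rc_AI137246_s_at, limma adjusted p = 0.0409), 2.31 ± 0.70 (H33836_s_at, adjusted p = 0.0446) and 1.59 ± 0.51 (X06564_at, adjusted p = 0.046). The blocked differences were 0.61, 0.71 and 0.51 with limma adjusted p of 0.498, 0.59 and 0.636. The block assumes the same difference between clusters in every group, which the Ncam1 signals did not show. On rc_AI137246_s_at the cluster 1 array lay near the cluster 2 arrays at 1d (1552.9 against 1677.7 and 1613.9). At 3d the cluster 1 array lay far below them (948.7 against 3164.4 and 3036.6). Among the 11 arrays of cluster 2 alone, Ncam1 was lower at 1d than in controls 3 to 6 on all 3 probe sets, by log2 folds of -0.81, -1.0 and -1.48 in the order above (limma adjusted p = 0.0439, 0.0132 and 0.00305), where 12% of all probe sets passed.

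Lsamp encodes the limbic system-associated membrane protein, a lipid-anchored adhesion molecule of the IgLON group, and had the widest differences between groups of the 7 genes. Probe set U31554_at had signals of 10.7, 11.4 and 11.3 at 12hr, 13.2, 17.3 and 16.5 at 1d, 233.4, 355.1 and 25.1 at 3d, and 606.5, 599.7 and 529.6 at 5d, against 12.1, 376.9 and 816.2 as the lowest, median and highest control. At 12hr and 1d all 6 arrays lay close to the floor of 11.3, with 2 of the 12hr arrays at or under it. The 12hr arrays lay below every other array, the 5d arrays lay above all others on the peptide, and the controls spanned the whole range, with controls 1 and 2 at 12.1 and 19.2. Lsamp rose at 5d against 12hr by 5.67 ± 1.41 on the log2 scale (SE, limma adjusted p = 0.0269). The size rests on the floor and was 4.56 with the floor at the 20th percentile. All 6 signals at 12hr and 1d lay under the filter signal of 44.9, and counted against that signal Lsamp was at least 12.9-fold higher at 5d than at 12hr. Blocking on the clusters gave 2.27 (95% interval 0.06 to 4.48, adjusted p = 0.327). The block assumes the same difference between clusters in every group, which the Lsamp signals did not show. At 1d the cluster 1 array (16.5) lay between the cluster 2 arrays (13.2 and 17.3). At 3d the cluster 1 array (25.1) lay far below the cluster 2 arrays (233.4 and 355.1). The blocked value and its interval thus rest on an average of unlike differences.

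At 1d the signal of Lsamp was low on the arrays of both clusters, and in cluster 1 it was low on every array (10.7 to 25.1). The 1d arrays 1 and 2 lie in cluster 2 and had 13.2 and 17.3, while controls 3 to 6, of the same cluster, had 221.1, 532.7, 770.4 and 816.2. The difference at 1d against all 6 controls was -3.37 ± 1.22 on the log2 scale and did not pass (limma adjusted p = 0.346). Controls 1 and 2, at 12.1 and 19.2, were as low as the 1d arrays. In the fit with the clusters as a block the difference was again -3.37 and passed (limma adjusted p = 0.0181, where 2.92% of all probe sets passed). The fold did not change, only the spread it was set against, and the block's assumption did not hold for Lsamp, as given above. Within cluster 2 the difference was -5.11 (adjusted p = 0.000181). Without controls 1 and 2 it was -5.07 (adjusted p = 0.00124). In cluster 1 the difference of the lone 1d array, at 16.5, from controls 1 and 2 was 0.11 (adjusted p = 0.932), the lone array being assumed to vary like the other groups. At 3d, arrays 1 and 2 had 233.4 and 355.1, and within cluster 2 Lsamp was higher at 3d than at 1d by 4.25 (limma adjusted p = 0.00269, where 3.7% of all probe sets passed). That step did not pass over all arrays, where it was 3.04 ± 1.41 (adjusted p = 0.582).

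Nrp2, which encodes neuropilin 2, a receptor for secreted semaphorins and a partner of growth factor receptors, had its highest signals at 1d and 3d. Probe set AF016297_at had signals of 123.2, 142.2 and 117.0 at 12hr, 240.9, 254.4 and 295.9 at 1d, 255.6, 340.4 and 345.1 at 3d, and 190.2, 159.4 and 132.7 at 5d, against 121.5, 184.8 and 202.7 as the lowest, median and highest control. All 6 arrays at 1d and 3d lay above all 12 others, whichever cluster they came from, and the ranges at 12hr, 5d and in the controls overlapped. Nrp2 differed among the 5 groups in limma's F-test (adjusted p = 0.0306), also with the clusters as a block (adjusted p = 0.0195). Leaving out 1 array at a time gave adjusted p of 0.0063 to 0.0827, with the call kept in 11 of 18 fits. No single comparison of Nrp2 passed over all probe sets. The log2 fold was 0.85 ± 0.19 at 3d against control (adjusted p = 0.452), although its unadjusted p of 0.000441 was the smallest of all 1027 probe sets in that comparison. It was 0.61 ± 0.19 at 1d against control (adjusted p = 0.317), 1.05 ± 0.22 at 1d against 12hr (adjusted p = 0.0709) and -0.97 ± 0.22 at 5d against 3d (adjusted p = 0.0645). With the clusters as a block, Nrp2 passed at 1d against 12hr, at 1.06 (adjusted p = 0.047, where 1.46% of all probe sets passed).

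Atp1b2, which encodes a beta subunit of the sodium pump that also acts in adhesion between neurons and astrocytes, was measured by probe sets J04629_at and D90048exon_g_at. J04629_at had signals of 272.1, 247.1 and 276.5 at 12hr, 628.5, 682.4 and 356.0 at 1d, 331.9, 326.8 and 374.9 at 3d, and 854.7, 1531.0 and 1361.6 at 5d, against 315.4, 490.8 and 836.2 as the lowest, median and highest control. The 5d arrays lay above all 15 others, and the 12hr arrays below all others. D90048exon_g_at had 43.0, 37.4 and 119.7 at 12hr, 461.2, 385.2 and 82.1 at 1d, 43.9, 178.3 and 46.8 at 3d, and 596.9, 988.3 and 833.8 at 5d, against 84.6, 265.0 and 661.0 as the lowest, median and highest control. On this probe set the 5d arrays lay above all other arrays on the peptide and overlapped with 2 controls. Both probe sets had lower mean log2 signals at 3d than at 1d, with differences of -0.64 and -1.77 that did not pass (adjusted p = 0.721 and 0.588). At 5d against 12hr Atp1b2 rose by 2.19 ± 0.38 on J04629_at (limma adjusted p = 0.00775) and by 3.77 ± 0.86 on D90048exon_g_at (adjusted p = 0.0234). In the blocked fit the differences were 1.64 (95% interval 0.77 to 2.52, limma adjusted p = 0.15) and 2.31 (0.40 to 4.22, adjusted p = 0.271). The equal difference between clusters that the block assumes was not seen on J04629_at. There the cluster 1 array lay below the cluster 2 arrays at 1d (356.0 against 628.5 and 682.4). At 3d the cluster 1 array lay above them (374.9 against 331.9 and 326.8). Against the controls at 5d, J04629_at had a log2 fold of 1.31 ± 0.33 (adjusted p = 0.206), with no overlap, and D90048exon_g_at had 1.70 ± 0.75 (adjusted p = 0.503). With the clusters as a block these were 1.12 and 1.22 (adjusted p = 0.247 and 0.559). J04629_at also differed among the 5 groups in the F-test (adjusted p = 0.0414), a call lost with the clusters as a block (adjusted p = 0.0605) and kept in 7 of 18 fits that left out 1 array.

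Promoters are shown for Bcan, Lsamp and Atp1b2, the 3 genes whose highest probe set rose by more than 3 on the log2 scale at 5d against 12hr, as context for signals that were high together at 5d. The sequences are RefSeq's for rat build GRCr8, 250 bases before to 50 after the annotated start, read 5′ to 3′ on the gene's strand, and 6 of the 7 genes had an entry. Capitals mark matches on either strand to TATAAA (the TATA box), CCAAT (the CCAAT box) and GGGCGG (the GC box). The Bcan window lies at chr2:175765265-175765564, the Lsamp window at chr11:74222918-74223217 and the Atp1b2 window at chr10:54823659-54823958, all on the minus strand.
Bcan: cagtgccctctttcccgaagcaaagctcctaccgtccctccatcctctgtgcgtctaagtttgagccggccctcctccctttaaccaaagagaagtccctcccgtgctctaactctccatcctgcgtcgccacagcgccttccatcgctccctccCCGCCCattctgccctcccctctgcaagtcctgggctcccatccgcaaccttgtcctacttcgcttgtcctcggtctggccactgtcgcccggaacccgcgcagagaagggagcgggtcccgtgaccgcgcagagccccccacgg
Lsamp: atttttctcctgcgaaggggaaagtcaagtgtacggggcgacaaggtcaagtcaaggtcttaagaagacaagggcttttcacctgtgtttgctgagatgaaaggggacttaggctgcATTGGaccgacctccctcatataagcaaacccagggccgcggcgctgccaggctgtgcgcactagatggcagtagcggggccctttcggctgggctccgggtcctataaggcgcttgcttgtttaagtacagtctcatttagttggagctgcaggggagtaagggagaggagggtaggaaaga
Atp1b2: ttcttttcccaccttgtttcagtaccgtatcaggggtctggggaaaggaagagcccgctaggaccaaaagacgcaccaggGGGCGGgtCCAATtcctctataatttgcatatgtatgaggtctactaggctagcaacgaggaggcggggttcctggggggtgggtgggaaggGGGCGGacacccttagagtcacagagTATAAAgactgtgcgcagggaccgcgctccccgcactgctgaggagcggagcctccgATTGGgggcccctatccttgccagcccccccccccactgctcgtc
The Bcan window held 1 GC box, the Lsamp window 1 CCAAT box, and the Atp1b2 window 1 TATA box, 2 CCAAT boxes and 2 GC boxes. The matches do not overlap. Among 33469 promoter windows of the same length, 14.2% held TATAAA, 37.5% CCAAT and 33.1% GGGCGG, so each motif is common. The AP-1 motif TGANTCA, present in 7.3% of windows, was in none of the 6. The windows of Agrn, Cd44 and Nrp2 held none of the 4 motifs. GC content was 64% for Bcan, 54.3% for Lsamp and 60.3% for Atp1b2, against a median of 51.7% over all windows.

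At the earliest time, most of the 7 genes had lower signals than the controls, but none passed the test. At 12hr against control the log2 fold was below 0 for 10 of 11 probe sets, from -3.83 (Lsamp) to -0.44 (Nrp2), and above 0 for Cd44 at 1.25. The adjusted p-values in limma were 0.0573 to 0.149, so 0 of 11 passed, where 1.66% of all 1027 probe sets did. All 11 had an unadjusted p under 0.05, against 29.3% of all probe sets. The median log2 fold was -1.39 over the 11 and -0.18 over all probe sets, and 6 of 11 did not overlap with the controls, against 15% of all. The counts turned on the controls of cluster 1. Without control 1, 11 of 11 passed (20.5% of all probe sets), and likewise 11 of 11 without controls 1 and 2, the pair with the cerebral cortex label (31.3% of all). Without control 2 alone, Lsamp was the 1 of the 11 that passed, where 3.02% of all did. Within cluster 1, where the 12hr arrays are set against controls 1 and 2 alone, the log2 folds of the 11 kept their signs, were smaller, at -1.21 to -0.31 and 0.77 for Cd44, and none passed. With the clusters as a block the folds were -1.56 (Lsamp) to -0.45 (Nrp2), and 1.26 for Cd44. None of these passed either, with limma adjusted p of 0.139 to 0.398, where 0.292% of all probe sets did. The blocked folds of Agrn were -0.92 and -0.66 (adjusted p = 0.139 and 0.309).

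At 1d against control, 0 of 11 passed, where 0.292% of all probe sets did, and the median log2 fold was -0.31 over the 11 and -0.05 over all. Within cluster 2, 5 of the 11 passed, where 12% of all did. Cd44 was higher (1.66, limma adjusted p = 0.0406), and Lsamp and the 3 Ncam1 probe sets were lower. The Cd44 call carries no weight. Its 1d arrays in that cluster (73.0 and 49.7) are among those through which it met the filter. Controls 3 to 6 (5.7 to 35.5) all lay under the filter signal. Lsamp lay under that signal at 1d and met the filter partly through controls 3 to 6. At 3d against control, 0 of 11 passed and 0 of all probe sets, while 2 of 11 and 4.58% of all had an unadjusted p under 0.05 in limma. The median was 0.03 over the 11 and 0.02 over all, and Nrp2 was the 1 probe set of the 11 without overlap, against 1.56% of all. At 5d against control, again 0 of 11 and 0 of all passed, with unadjusted p under 0.05 for both Atp1b2 probe sets and for 9.15% of all. The median was 0.36 over the 11 and -0.14 over all. Over the mean of the 4 times against control, 0 of 11 and 0 of all passed, with unadjusted p under 0.05 for 1 of 11 (Agrn M64780_at at -0.50 ± 0.20) and 7.5% of all. These comparisons share the 6 controls.

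**Figure D2:**
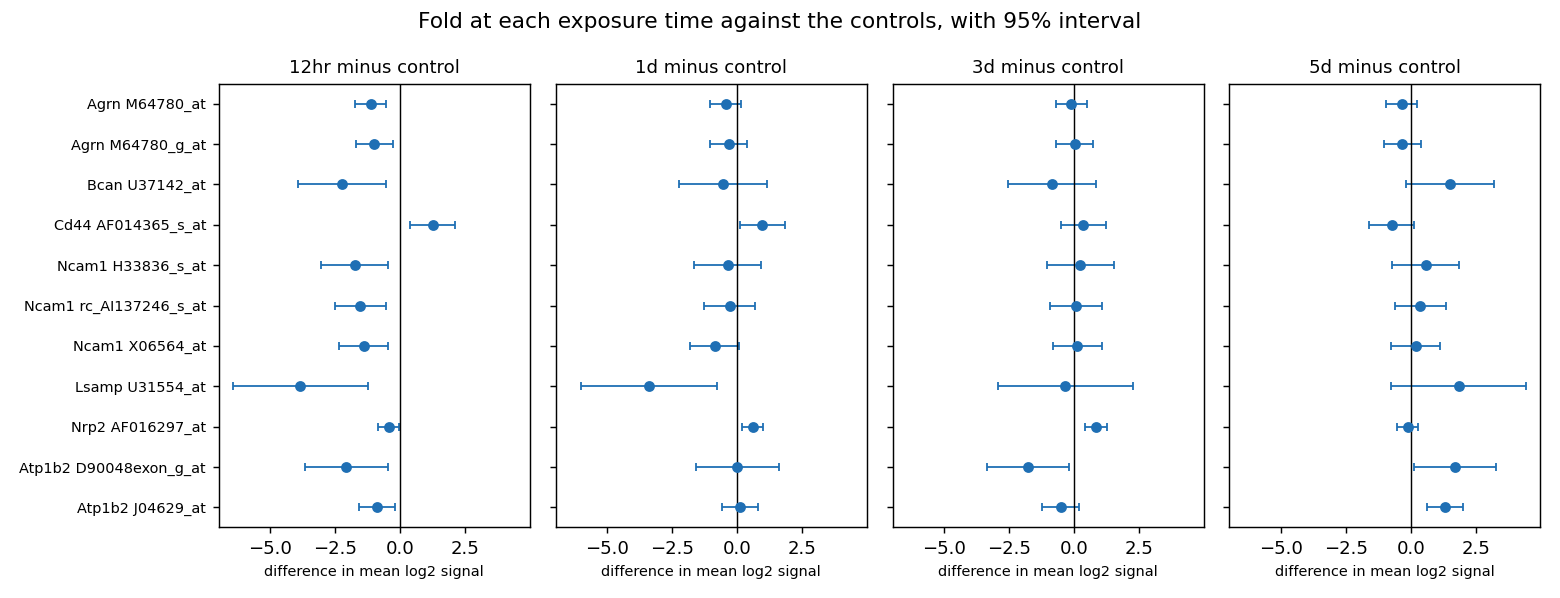
Difference in mean log2 signal at each time on the peptide minus control for the 11 probe sets, with 95% intervals, 1 panel per time. At 12hr 10 of 11 lie below 0 and Cd44 above; at 3d Nrp2 lies above 0 at 0.85, and at 5d Atp1b2 J04629_at at 1.31.

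Between the ends of the time course most of the 7 genes changed, toward more signal for Bcan, Ncam1, Lsamp and Atp1b2 and, among dim signals, toward less for Cd44. At 5d against 12hr 8 of 11 passed, 7 higher and 1 lower, where 16.5% of all probe sets passed, 8.96% higher and 7.5% lower. Of the 8, Cd44 and Lsamp met the filter on arrays of some groups only, with no 5d array above it for Cd44 and no 12hr array above it for Lsamp. The median log2 fold was 1.89 over the 11 and 0.01 over all, and 10 of 11 did not overlap, against 53.7% of all. The 2 Agrn probe sets, at 0.77 ± 0.32 and 0.67 ± 0.39 (limma adjusted p = 0.115 and 0.248), and Nrp2, at 0.32 ± 0.22 (adjusted p = 0.336), did not pass. The calls rest on 3 arrays per time and were fewer when 1 of them was left out, with 0 of 11 without 12hr array 2, 1 without 12hr array 1, 5d array 2 or 5d array 3, and 2 without 12hr array 3 or 5d array 1. In the same fits, 0.0974% of all probe sets passed without 12hr array 2, 1.17% without 12hr array 1, 0.974% without 5d array 2 or 5d array 3, 1.07% without 12hr array 3 and 3.21% without 5d array 1. Without 1d array 2 the count was 5, where 7.4% of all probe sets passed. Without any 1 of the other 11 arrays it was 6 to 9, where 9.35% to 20.9% of all did. In the fit blocked on the clusters 0 of 11 and 0 of all probe sets passed, while 5 of 11 and 14.8% of all had an unadjusted p under 0.05 in limma. In that fit all 11 folds kept their sign, and the intervals of Bcan, Cd44, Lsamp and both Atp1b2 probe sets excluded 0 before adjustment. Markers of other cells differed between these times as well. The summed signal of 12 measured neuron markers of 19 was 5561.6 to 5927.5 at 5d and 3829.9 to 4055.2 at 12hr, with none at 0 on any array. At 5d 7 of the 12 lay above the 12hr range, such as Map2 with 419.5 to 544.7 at 5d and 42.6 to 57.2 at 12hr, 1 (Nefh) lay below it and 4 overlapped. Nefh and Syn2 were at or under the floor on 4 and 3 of the 18 arrays. The sum of the 2 measured fibroblast, meningeal and vascular markers of 12, Igf2 and Pdgfrb, was 491.4 to 692.6 at 5d and 3562.4 to 3748.6 at 12hr. It also separated the clusters over all groups, at 3562.4 to 9282.7 in cluster 1 and 491.4 to 935.3 in cluster 2. The 2 genes differed, since Igf2 had 229.3 to 267.9 at 5d and 3282.5 to 3487.6 at 12hr, while Pdgfrb had 245.2 to 456.6 at 5d and 261.0 to 294.4 at 12hr, which overlap. The 8 astrocyte markers summed to 41664.5 to 42339.6 at 5d and 38558.2 to 39896.6 at 12hr, close sums that hold opposite differences. Of the 8, 5 lay above the 12hr range at 5d, such as Slc1a3, a glutamate transporter, with 4329.3 to 4874.2 at 5d and 565.4 to 654.8 at 12hr, and Mt3, a metallothionein, with 2914.5 to 4629.4 at 5d and 378.4 to 474.3 at 12hr. Gja1, the gap junction protein connexin 43, lay below it with 1058.6 to 1799.0 at 5d and 5812.0 to 6132.7 at 12hr, as did Glul with 7126.5 to 9839.4 at 5d and 12006.4 to 12630.1 at 12hr, and Vim overlapped. The 6 measured oligodendrocyte markers of 12 summed to 1756.9 to 1916.4 at 5d and 1628.0 to 1821.6 at 12hr, sums that also hold opposite differences. At 5d 2 of the 6 (Cnp and Sox10) lay above the 12hr range, 1 (Pdgfra) lay below it and 3 overlapped. Sox10 was at or under the floor on 17 of 18 arrays. The 1 measured microglia marker of 12, Itgam, gave 22.3 to 60.5 at 5d and 32.1 to 40.1 at 12hr. The part of these cells in the result was not tested, and fewer cells of a type and less RNA per cell cannot be told apart in bulk samples.

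**Figure D3:**
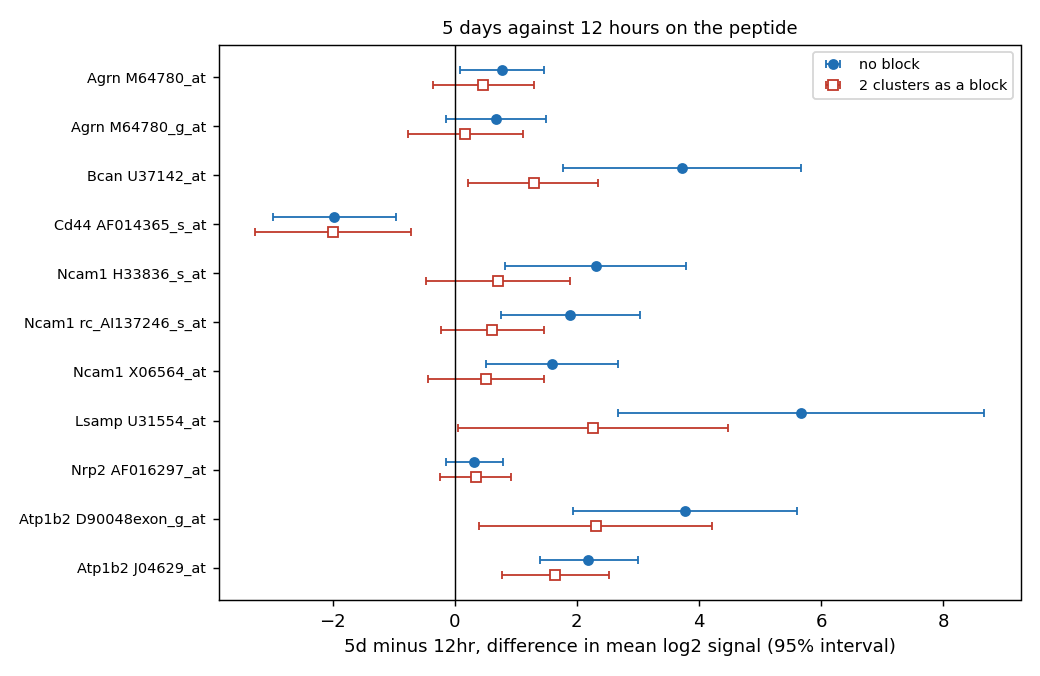
Difference in mean log2 signal, 5d minus 12hr, for the 11 probe sets with 95% intervals, without a block (filled circles) and with the 2 clusters as a block (open squares). The difference of Lsamp is 5.67 without and 2.27 with the block and that of Bcan 3.72 and 1.29, while Cd44 is at -1.97 and -2.0.

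The steps between neighbouring times passed for none of the 11. At 1d against 12hr, 0 of 11 and 0 of all probe sets passed, with unadjusted p under 0.05 in limma for 5 of 11 and 14.6% of all. In that step 9 of 11 did not overlap, all higher at 1d, against 33.3% of all. At 3d against 1d, 0 of 11 passed, where 0.0974% of all did, a single probe set, and with the replicate number as a block over the 1d and 3d arrays 0 passed. At 5d against 3d, 0 of 11 passed, where 0.292% of all did. The nearest was Atp1b2 J04629_at at 1.82 ± 0.38 (adjusted p = 0.0514), with D90048exon_g_at at 3.46 ± 0.86 (adjusted p = 0.0902). In the F-test over the 5 groups 2 of 11 passed, Nrp2 and Atp1b2 J04629_at, where 1.66% of all did.

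Different probe sets of 1 gene followed each other across arrays. Pearson's r of log2 signals was 0.94 in the 7 arrays of cluster 1 and 0.83 in the 11 of cluster 2 for the Agrn pair, and 0.83 to 0.96 and 0.86 to 0.97 for the 3 Ncam1 pairs. For Atp1b2 it was 0.41 and 0.90. Between genes, Lsamp and the 3 Ncam1 probe sets had values of 0.62 to 0.65 within cluster 1, and of 0.74 to 0.83 within cluster 2. Those of Cd44 and Lsamp were -0.52 and -0.89. In cluster 1 all Lsamp signals lay under the filter signal, at 10.7 to 25.1, so its values there describe signals near the floor. Bcan and Atp1b2 J04629_at had 0.14 and 0.76. These values are descriptions over arrays that share groups and scaling, so they carry no test.

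The genes outside the 7 with the most similar course were ranked by Pearson's r of log2 signal over the 18 arrays, a value raised by the clusters. For Bcan they were Nrxn2, Gria3 and Ctnnd2, each at 0.96, with 0.34, 0.53 and 0.22 within cluster 1 and 0.83, 0.77 and 0.87 within cluster 2. For Lsamp they were Grik5 and Ctnnd2 at 0.96 and Gria3 at 0.94, with 0.92, 0.90 and 0.91 within cluster 2. Within cluster 1 Grik5 and Ctnnd2 had 0.80 and 0.38. In that cluster the Gria3 probe set lies at the floor and Lsamp itself lies near it. For Ncam1 they were Clcn4 at 0.95 and Igfbp3 and Hspb1 at 0.94, with 0.41, 0.83 and 0.84 within cluster 1 and 0.96, 0.81 and 0.84 within cluster 2. For Atp1b2 they were Maob at 0.93 and Scn7a and Tf at 0.90, with 0.36, 0.66 and 0.79 within cluster 1 and 0.90, 0.84 and 0.83 within cluster 2. For Agrn they were Syn1 at 0.88, Cngb1 at 0.85 and Tgfb3 at 0.84, with 0.93, 0.66 and 0.91 within cluster 1 and 0.73, 0.91 and 0.64 within cluster 2. For Cd44 they were Mif at 0.85, Ncs1 at 0.82 and Itgb3 at 0.81, with 0.63, 0.68 and 0.10 within cluster 1 and 0.90, 0.92 and 0.88 within cluster 2. For Nrp2 they were Dynll1, Fgfr4 and Prnp at 0.81, 0.74 and 0.72, with 0.90, 0.94 and 0.94 within cluster 1 and 0.61, 0.54 and 0.39 within cluster 2.

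Partners and relatives of the 7 genes were followed in 6 lists, and none of their probe sets passed against control at any time. Nor did any with the clusters as a block at 5d against 12hr. Of 5 genes of the agrin receptor and its synaptic partners, with 5 probe sets, 0 passed at 5d against 12hr, where 16.5% of all probe sets did. All 5 measured genes encode subunits of the muscle acetylcholine receptor. At 12hr against control the smallest p among them was that of Chrne, at -0.58 ± 0.27 (limma adjusted p = 0.168). Of 3 probe sets of the proteoglycan genes Ncan and Cspg5, 0 passed. For Ncan, which encodes neurocan, signals are given for M97161_at, which was not its only probe set. They were 159.1 to 171.3 at 12hr, 25.4 to 3314.9 at 1d, 21.7 to 3430 at 3d and 2574.7 to 4638.6 at 5d, against 57.3 to 3575.9 in the controls. They thus spread widely within 1d, 3d and the controls.

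Among 11 probe sets of 8 immunoglobulin-family adhesion genes, 0 rose and 2 fell at 5d against 12hr, both of them of Icam1, which encodes a ligand for leukocyte integrins, where 8.96% of all probe sets rose and 7.5% fell. Icam1 D00913_g_at had 1180.8 to 3099.7 at 5d and 4779.1 to 5114 at 12hr (log2 fold -1.32 ± 0.39, limma adjusted p = 0.0416). Of the 4 probe sets of 2 sodium pump genes, 1 fell, against the same 7.5% of all, namely Atp1b3, another beta subunit of the pump, with 2048.9 to 2692.5 at 5d and 3641.2 to 4363 at 12hr on D84450_at (-0.78 ± 0.24, adjusted p = 0.0446). Of Nrp1, the other neuropilin, and Epha7, an ephrin receptor, neither passed. Nrp1 had 137.4 to 213 at 5d and 405.3 to 470.6 at 12hr, and so did not overlap, whereas at 3d it spread over 376.7 to 1237.5.

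Of 9 probe sets of 8 other matrix, cadherin, integrin and protease genes, 3 rose and 1 fell at 5d against 12hr, where 8.96% of all rose and 7.5% fell. The 3 were Nrxn2, Nlgn1 and Nlgn3, a neurexin and 2 neuroligins that join across synapses, at 2.55 ± 0.71, 2.54 ± 0.70 and 1.53 ± 0.49 (limma adjusted p = 0.0384, 0.0372 and 0.046). Nrxn2 had 553.3 to 748.6 at 5d and 106.5 to 122 at 12hr, while Nlgn1 had 61.3 to 94.2 at 5d and 4.8 to 14.9, near the floor, at 12hr. Nlgn3 had 33.5 to 107 at 5d and 18.7 to 26 at 12hr. All 12hr signals of Nlgn1 and Nlgn3 lay under the filter signal of 44.9. Both genes thus met the filter on arrays of other groups only, 5d among them, and their calls and the count of 3 lean on that filter. Itgb3, an integrin subunit that binds matrix proteins, had 104.3 to 119.4 at 5d and 235.6 to 254.7 at 12hr (-1.13 ± 0.27, adjusted p = 0.0264).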

How the data were processed

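The table that the authors deposited holds a linear intensity, the signal, of 1322 probe sets on each of 18 arrays. Its software is not given in the sources used here. The trimmed means show that the intensities were already scaled, and they were not scaled again. The 59 array controls were left out. Signals under the 10th percentile of the other 1263 probe sets (11.3) were raised to that value before taking log2, which understates folds of dim probe sets. Probe sets above the 30th percentile (44.9) on at least 3 arrays were kept, 1027 in all. Symbols came from the platform annotation, where 1137 probe sets had 1 symbol, 8 several and 118 none, and 1132 matched the RefSeq gene table.

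All 18 arrays, in 5 groups, entered a single limma fit (version 3.58.1, R 4.3.3, with lmFit, contrasts.fit and eBayes, 13 residual degrees of freedom, two-sided), with Benjamini-Hochberg adjustment over the 1027 probe sets of each comparison and a threshold of 0.05. A fold is a difference between mean log2 signals. The number of arrays limits the precision. On simulated data for 12hr against control, with 1027 probe sets and no clusters, the fit found 6%, 56%, 90% and 98% of those changed by 0.5, 1, 2 and 3 on the log2 scale and called 0.846% of unchanged ones. The deposited arrays do fall into clusters, so the shares found in the simulation need not hold for them. At 12hr against control, folds of -3.83 (Lsamp), -2.22 (Bcan) and -2.07 (Atp1b2 D90048exon_g_at) did not pass, and a difference that did not pass may still be present. The clusters of arrays came from average linkage, with 1 minus Pearson's r as the distance.

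Array pairs with the same replicate number deviated together from their group means in 1d and 3d, with r of 0.39, 0.429 and 0.683, which no other pair of groups matched, at least 1 of the 3 values there being under 0.1. Against the controls the values were negative, at -0.303, -0.541 and -0.247 for 1d and -0.505, -0.6 and -0.417 for 3d. The numbers come from the sample titles. In 1d and 3d array 3 alone lies in cluster 1, and among controls 1 to 3 control 3 alone lies in cluster 2. A pairing and the clusters thus cannot be told apart. The 7 genes, the 6 lists of partners and relatives and the marker lists were chosen with earlier results of these data known, and nothing is supported by that choice. All probe sets of the 7 genes are named. From each list the genes named passed the test or had a low p among the comparisons with control, and the similar genes are the 3 with the highest r. Fits added after seeing the data were without 1d array 3 and 3d array 3, without controls 4, 5 and 6, and with a replicate block over the 1d and 3d arrays. The other alternatives were scaling (quantile, median, cyclic loess), floor, filter, trend and robust options, a replicate block, clusters as a block or alone, and leaving out controls 1 and 2 or each array in turn.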

Additional observations from a re-analysis of the deposited data

Results flagged for a closer look

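The log2 fold against control differed between 5d and 12hr for 8 probe sets, tested as the difference between these times in limma, in which the controls cancel. The fold at 5d minus the fold at 12hr was 3.72 for Bcan (adjusted p = 0.0269), 5.67 for Lsamp (adjusted p = 0.0269), 3.77 and 2.19 for Atp1b2 D90048exon_g_at and J04629_at (adjusted p = 0.0234 and 0.00775), and -1.97 for Cd44 (adjusted p = 0.0259), whose 5d signals all lay under the filter signal. For Ncam1 it was 2.31 on H33836_s_at, 1.89 on rc_AI137246_s_at and 1.59 on X06564_at (adjusted p = 0.0446, 0.0409 and 0.046). None of the 8 passed with the clusters as a block, where the adjusted p was 0.15 to 0.636. No probe set of the 7 genes had a control standing apart from the other 5 by Dixon's test. That test looks at 1 extreme control at a time and could not flag 2 low controls that lie close together. Controls 1 and 2 were such a pair for Lsamp, at 12.1 and 19.2, with control 3 next at 221.1.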

How the results depend on the processing

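Of 3421 values of single probe sets of the 7 genes under 15 alternatives and 18 fits that left out 1 array, 3241 kept their side of the threshold, 84 lost a call, 96 gained one and 0 reversed a called direction, while 129 changed sign, all of them uncalled before and after. The number of all probe sets passing moved more. At 12hr against control, 17 passed, and 8 did with quantile normalization, 4 with cyclic loess, 3 with the replicate block, 4 without controls 4, 5 and 6, 3 with the clusters as a block, 0 within cluster 1, 321 without controls 1 and 2, 30 without 1d array 3 and 3d array 3, and 1 to 211 leaving out 1 array. At 1d against control, 3 passed, and 1 with the floor at the 20th percentile, 1 with the replicate block or without controls 4, 5 and 6, 30 with the clusters as a block, 0 within cluster 1, 123 within cluster 2, 59 without controls 1 and 2, 38 without 1d array 3 and 3d array 3, and 0 to 26 leaving out 1 array. At 3d against control, 0 passed, and 1 within cluster 1, 6 within cluster 2, 5 without 1d array 3 and 3d array 3, and 0 to 3 leaving out 1 array. At 5d against control, 0 passed, and 2 with quantile normalization, median centring or cyclic loess, 1 with the floor at the 20th percentile, 61 with the replicate block, 58 without controls 4, 5 and 6, and 0 to 2 leaving out 1 array. For the mean of the 4 times against control, 0 passed, and 1 without the filter, 54 without controls 1 and 2, 3 without controls 4, 5 and 6, 5 without 1d array 3 and 3d array 3, and 0 to 3 leaving out 1 array. At 1d against 12hr, 0 passed, and 1 with the replicate block or without controls 4, 5 and 6, 15 with the clusters as a block, 22 without controls 1 and 2, 44 without 1d array 3 and 3d array 3, and 0 to 24 leaving out 1 array. At 3d against 1d, 1 passed, and 3 with quantile normalization or median centring, 0 with the floor at the 5th or 20th percentile, without the filter or with trend and robust options, 2 with the replicate block, 4 without controls 4, 5 and 6, 0 with it over the 1d and 3d arrays only, 13 with the clusters as a block, 38 within cluster 2, 5 without controls 1 and 2, 6 without 1d array 3 and 3d array 3, and 0 to 10 leaving out 1 array. At 5d against 3d, 3 passed, and 7 with median centring, 5 with the floor at the 20th percentile, 6 with trend and robust options, 24 with the replicate block, 26 without controls 4, 5 and 6, 0 within cluster 2, 18 without controls 1 and 2, and 0 to 12 leaving out 1 array. At 5d against 12hr, 169 passed, and 93 with quantile normalization, 103 without the filter, 0 with the clusters as a block, and 1 to 215 leaving out 1 array. In the F-test 17 passed, and 7 with quantile normalization, 9 with median centring, 8 with cyclic loess, 45 with the replicate block, 77 without controls 4, 5 and 6, 26 with the clusters as a block, 219 without controls 1 and 2, 90 without 1d array 3 and 3d array 3, and 1 to 114 leaving out 1 array. Beyond the replicate block, taken up next, the cause was not tested. Outside 1d and 3d the arrays share only a replicate number. With that number as a block over 15 arrays, 6 of 11 probe sets of the 7 genes passed at 5d against 12hr in place of 8. In that comparison 14.8% of all probe sets passed, and Ncam1 H33836_s_at and X06564_at were lost (limma adjusted p = 0.0619 and 0.0637). At 5d against control Bcan (2.79, adjusted p = 0.0435) and Atp1b2 (2.78 and 1.86, adjusted p = 0.045 and 0.00544) passed in the fit with this block, where 5.94% of all did. That fit also leaves out controls 4, 5 and 6, which share no number with another group, and without them and with no block Bcan and Atp1b2 had the same folds and passed at 5d against control too (adjusted p = 0.0328 for Bcan, 0.0385 and 0.00188 for Atp1b2), as did Lsamp (3.96, adjusted p = 0.0373). So these calls did not need the block. Without controls 4, 5 and 6, 5.65% of all probe sets passed. The controls left were 1 and 2, of cluster 1, and 3, while all 5d arrays lie in cluster 2. Within cluster 2, against controls 3 to 6, the log2 folds were 0.58 for Bcan, 0.15 for Lsamp, and 1.28 and 1.05 for Atp1b2. None of these passed. The median of all probe sets at 12hr against control was -0.18 as deposited and -0.02, 0.02 and -0.04 with quantile normalization, median centring and cyclic loess, and under each 10 of the 11 stayed below 0 with Cd44 above. Without controls 1 and 2, 10 of 11 passed the F-test, where 21.3% of all probe sets did. At 12hr against control Agrn M64780_at passed with trend and robust options, where 1.66% of all did. Cd44 and Lsamp lie near the floor on many arrays, which limits the precision of their folds.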
